A study of Mus musculus with 3 samples.

Results

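Cathepsins are the proteases of the lysosome and of related granules. The 10 genes described here, *Ctsa*, *Ctsb*, *Ctsc*, *Ctsd*, *Ctse*, *Ctsh*, *Ctsk*, *Ctsl*, *Ctss* and *Ctsz*, were taken by symbol from the 16072 named genes of an RNA-seq table. All 10 were above 0 FPKM in each library and reached a mean of at least 1 FPKM. The cells were Ly6G+ myeloid cells from the bone marrow (BM) of C57BL/6 mice, which carried subcutaneous B16.F10 melanoma cells given 1 week before an adeno-associated virus (AAV) vector was put into the muscle. The mice were, as for the whole study, 6 to 10 weeks old. The AAV-ctrl group (2 libraries) received the empty vector and the AAV-IL27 group (1 library) a vector in which the ubiquitous CAG promoter drives a fusion of both subunits of murine IL-27. Cells were collected 3 weeks after the vector. With 1 AAV-IL27 library the spread among AAV-IL27 mice was not measured, so no test was run, and each difference was set beside that between the AAV-ctrl libraries.

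Cathepsins fall into catalytic families. Aspartic cathepsins (*Ctsd*, *Ctse*) and most cysteine cathepsins cut within a protein chain, while other members trim chain ends, and nearly all are made as inactive precursors that mature in acidic compartments. In neutrophils and macrophages they digest engulfed material, cathepsin C removes the dipeptides that keep the serine proteases of neutrophil granules inactive, and cathepsin S prepares class II molecules for antigen. Stefins and cystatins bind and block the cysteine members outside the lysosome.

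Expression was measured as FPKM, the fragments of a gene scaled for its transcript length and for the mapped fragments of the library, so levels of different genes can be ranked. The depth of each library was estimated at about 19000000 to 19400000 fragments. *Ly6g*, the marker in the label, was at 711.76 and 766.11 FPKM in AAV-ctrl and at 586.29 in AAV-IL27, and the sum of 15 neutrophil genes in AAV-IL27 was 95.3% of the AAV-ctrl mean. Markers of other BM cells were also present, and the summed levels of several types differed between AAV-IL27 and AAV-ctrl. In AAV-IL27 the sum of 17 macrophage genes was 40.6% of the AAV-ctrl mean, of 13 erythroid genes 13.7%, of 10 B cell genes 14.2%, of 8 megakaryocyte genes 17.1% and of 13 stromal genes 43.5%. The sum of 8 osteoclast genes was at 57.5% of the AAV-ctrl mean, of 10 monocyte genes at 108% and of 9 dendritic cell genes at 140%. In bulk RNA, fewer cells of a type and less RNA per cell cannot be told apart.

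Sequences near start sites are shown for *Ctsc* and *Ctsk*, the members called lower, and for *Ctsd* and *Ctsa*, which were not called and whose windows hold pairs of one motif. RefSeq windows (GRCm38.p6, from 250 bases before to 50 after a start site) matched 7 of the 10 genes, with a pair of windows for *Ctsa*. Capitals mark CACGTG, the E-box core bound by TFEB, TFE3 and USF factors that is common upstream of lysosome genes, TTCNNNGAA, the GAS motif of STAT dimers, and AGGAAGT, a motif of ETS factors such as PU.1, each searched on both strands. The *Ctsd* stretch lies at chr7:142387828-142388077 on the minus strand, the *Ctsa* stretch at chr2:164833758-164833787, the *Ctsc* stretch at chr7:88277835-88278023 and the *Ctsk* stretch at chr3:95498960-95499209, the last 3 on the plus strand. The *Ctsc* stretch ends before the first annotated base of the gene, which lies upstream of the start site of its window. The *Ctsa* stretch crosses the start site of its window and lies within the annotated gene, which begins at 164832872.
Ctsd: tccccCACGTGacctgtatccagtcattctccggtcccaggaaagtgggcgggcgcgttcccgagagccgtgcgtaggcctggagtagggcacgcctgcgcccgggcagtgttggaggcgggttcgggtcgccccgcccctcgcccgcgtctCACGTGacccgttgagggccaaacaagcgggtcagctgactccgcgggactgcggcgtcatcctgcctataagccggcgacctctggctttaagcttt
Ctsa: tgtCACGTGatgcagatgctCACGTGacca
Ctsc: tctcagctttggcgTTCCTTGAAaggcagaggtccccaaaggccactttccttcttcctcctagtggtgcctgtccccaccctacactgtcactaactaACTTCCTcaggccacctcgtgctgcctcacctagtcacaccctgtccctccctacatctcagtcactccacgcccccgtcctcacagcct
Ctsk: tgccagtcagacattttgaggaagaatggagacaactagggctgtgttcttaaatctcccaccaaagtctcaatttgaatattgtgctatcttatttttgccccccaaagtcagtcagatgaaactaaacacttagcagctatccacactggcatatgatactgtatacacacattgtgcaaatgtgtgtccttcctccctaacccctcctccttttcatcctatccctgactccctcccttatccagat

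The E-box was found in 3 of the 8 windows of these 7 members, against 7.15% of 32851 RefSeq windows. It began at -245 and -98 from the start site in *Ctsd*, at -12 and 5 in the second *Ctsa* window and at -236 in *Ctsl*. The GAS motif was found for 1 member, *Ctsc* at -236 (8.30% of all windows), and the ETS motif for 2, *Ctsc* at -151 and *Ctss* at -2 (9.35%). None of the 3 motifs was found in the *Ctsk* and *Ctsz* windows. A match describes these letters only, and the windows of all genes are not matched to these in base composition.

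*Ctsd* dominated the family. In AAV-ctrl its mean of 826 FPKM was followed by *Ctsb* (132), *Ctsh* (95.5), *Ctse* (65.5), *Ctss* (61.9), *Ctsz* (58.9), *Ctsa* (42.0), *Ctsc* (9.77), *Ctsl* (3.84) and *Ctsk* (3.71). The AAV-ctrl values of *Ctse* overlapped those of *Ctss*, these overlapped those of *Ctsz*, and *Ctsl* overlapped *Ctsk*, so these neighbours did not differ beyond their spread. *Ctsd* made up 62.7% and 64.4% of the cathepsin FPKM of the AAV-ctrl libraries and 64.0% of that of AAV-IL27. In AAV-IL27 *Ctsb* changed places with *Ctsh* and the rest of the order was the same.

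**Figure D1:**
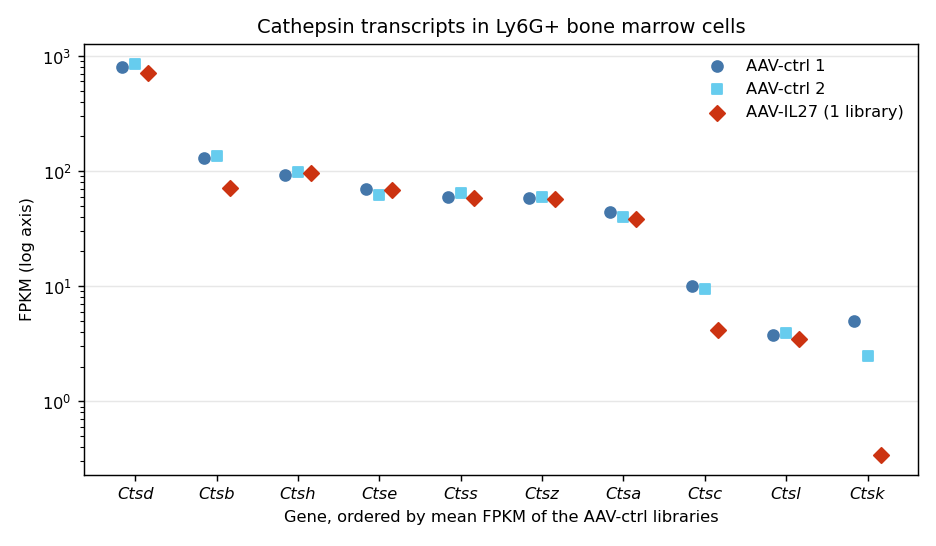
FPKM (log axis) of the 10 cathepsin genes in each library, ordered by the AAV-ctrl mean; circles and squares are the AAV-ctrl libraries and diamonds the AAV-IL27 library. The AAV-IL27 value lies apart from both AAV-ctrl values for *Ctsb*, *Ctsc* and *Ctsk*, and close to them for the other 7 genes.

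The cathepsins did not move as one family. In AAV-IL27, *Ctsk* was at 9.18% of the AAV-ctrl mean, *Ctsc* at 42.7% and *Ctsb* at 53.9%, while the other 7 lay between 85.5% and 105%. Differences are given on the log2(FPKM + 1) scale, AAV-IL27 minus the AAV-ctrl mean, which makes changes of low genes look smaller than they are. A gene was called when its AAV-IL27 value was 1 unit or more from each AAV-ctrl library. On this rule 2 of 10 members were lower (*Ctsc*, *Ctsk*), against 2.32% of the 9130 genes with a mean of at least 1 FPKM, and 0 were higher, against 0.307%. At a distance of 0.5 units 3 members were lower, *Ctsb* being the third, against 7.01%, and 0 were higher, against 1.57%. In total, 8 members were below both AAV-ctrl libraries, against 41.9% of genes, and 0 were above both, against 38.9%. The median difference of the members was -0.12, against -0.01 over all genes. Between the 2 AAV-ctrl libraries, the 99th percentile of absolute differences over all genes was 0.571. In AAV-IL27, 3 members exceeded it (*Ctsb*, *Ctsc* and *Ctsk*) while 7 did not. *Ctsk* also exceeded it between the AAV-ctrl libraries (-0.78). The share of all genes beyond this limit in AAV-IL27 was not counted, so the 3 members have no background to be read against.

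**Figure D2:**
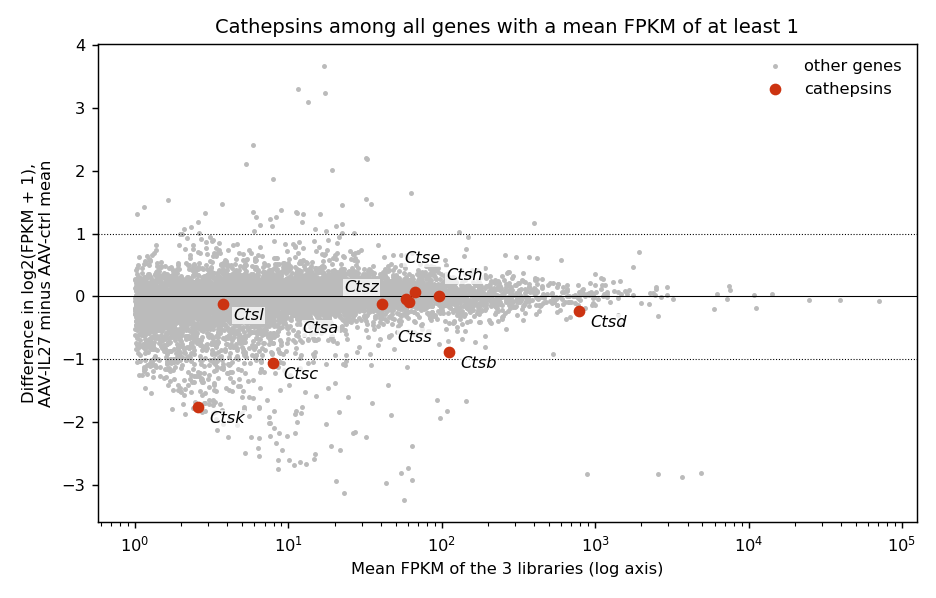
Difference in log2(FPKM + 1) between the AAV-IL27 library and the AAV-ctrl mean against mean FPKM (log axis) for 9130 genes (grey) and the 10 cathepsins (red); dotted lines mark 1 unit. *Ctsk* and *Ctsc* lie below the lower line, *Ctsb* just above it, and the other 7 lie between -0.22 and 0.07.

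Of the aspartic members, *Ctsd* (NCBI Gene 13033, chromosome 7 from 142375910 to 142387827, minus strand) is the gene of the main aspartic protease of the lysosome. Its level was 795.12 and 857.31 FPKM in AAV-ctrl 1 and 2 and 706.70 in AAV-IL27. The AAV-IL27 value was below both, with a log2 difference of -0.22, while the AAV-ctrl libraries differed by 0.11. Among all genes, *Ctsd* was the 73rd and 68th most abundant in AAV-ctrl and the 84th in AAV-IL27. The gene shares 670 exonic bases with Gm49369 on the same strand, so part of its fragments could belong to either.

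*Ctse* (NCBI Gene 13034, chromosome 1 from 131638314 to 131675507, plus strand) encodes an aspartic protease of endosomes in immune cells that is also known from the red cell membrane. It stood at 69.40 and 61.59 FPKM in AAV-ctrl and 68.67 in AAV-IL27, between both AAV-ctrl values (log2 difference 0.07). Erythroid genes took another course. All 13 of the erythroid list were lower by at least 1 unit than both AAV-ctrl libraries, against 2.32% of all genes. Their median was -2.81. *Hba-a1*, the most abundant, was at 8135.70, 5547.0 and 957.72 FPKM, and among those furthest from AAV-ctrl were *Slc4a1* (11.3% of the AAV-ctrl mean), *Ahsp* (14.1%) and *Alas2* (11.9%). Within AAV-ctrl, the sum of the erythroid list was 20515 FPKM in the first library and 13855 in the second.

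*Ctsa* (NCBI Gene 19025, chromosome 2 from 164832872 to 164841032, plus strand) encodes a serine carboxypeptidase that also protects neuraminidase and beta-galactosidase in the lysosome. Its FPKM was 44.14 and 39.94 in AAV-ctrl and 38.45 in AAV-IL27. The value was below both, but the log2 difference of -0.12 was no larger than that between the AAV-ctrl libraries (-0.14). Its partners were at 29.42, 31.89 and 35.37 FPKM (*Neu1*) and at 4.98, 4.79 and 3.17 FPKM (*Glb1*), giving both AAV-ctrl values before that of AAV-IL27, the order kept for all further sets of 3 values. Exons of *Ctsa* overlap those of *Pltp* on the opposite strand by 495 bases, and *Pltp* was at 3.34, 3.30 and 2.93 FPKM. The libraries kept strand, but whether counting used it is not given in the sources used here.

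Of the cysteine endopeptidases, *Ctsb* (NCBI Gene 13030, chromosome 14 from 63122462 to 63145923, plus strand) was the most abundant of the 3 members with a distance of over 0.5 units. Cathepsin B cuts within chains and also removes dipeptides from their ends. Its level was 129.52 and 135.43 FPKM in AAV-ctrl, a mean of 132 ± 4.18 (SD, n = 2), and 71.41 in AAV-IL27. The AAV-ctrl libraries were close together and the AAV-IL27 library far below them, with log2 differences of -0.85 and -0.91 from AAV-ctrl 1 and 2. Its rank among all genes was 524 and 515 in AAV-ctrl and 1013 in AAV-IL27. The ratio of *Ctsb* to *Ctsd*, which needs no scaling between libraries, was 0.163 and 0.158 in AAV-ctrl and 0.101 in AAV-IL27. *Fdft1*, whose exons overlap *Ctsb* by 774 bases on the other strand, was at 4.19, 5.24 and 4.88 FPKM.

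*Ctsk* (NCBI Gene 13038, chromosome 3 from 95499210 to 95509387, plus strand) encodes the collagen-degrading protease for which osteoclasts are known. It was at 4.95 and 2.46 FPKM in AAV-ctrl and 0.34 in AAV-IL27. Both the gap to AAV-IL27 and that between the AAV-ctrl libraries were wide, with log2 differences of -2.15 and -1.37 from AAV-ctrl 1 and 2 and of -0.78 between these. By the estimated depth, about 136 and 69 fragments lie behind the AAV-ctrl values and 9 behind that of AAV-IL27. Exact 95% Poisson intervals, which cover counting error only, ran from 114 to 161, from 53.7 to 87.3 and from 4.12 to 17.1. The intervals of the AAV-ctrl libraries thus did not overlap each other either, and the gap between these libraries was wider than counting error. *Ctsk* has only 17398 bp between its end and the start of *Ctss*, its neighbour on the same strand, and the ratio of *Ctss* to *Ctsk* was 12.0, 26.1 and 171 in the 3 libraries.

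*Ctss* (NCBI Gene 13040, chromosome 3 from 95526786 to 95556405, plus strand) encodes the protease that degrades the invariant chain in antigen-presenting cells. It was at 59.63 and 64.09 FPKM in AAV-ctrl and 58.22 in AAV-IL27. This value was below both by less than the AAV-ctrl libraries differed (log2 difference -0.09, against 0.10). *Cd74*, which encodes the invariant chain and was the most abundant of 8 antigen processing genes, was at 126.49, 185.34 and 94.94 FPKM. None of the 7 antigen processing genes with a mean of at least 1 FPKM was called lower or higher, and their median was -0.45, against 0.55 between the AAV-ctrl libraries, and -0.10 without AAV-ctrl 2.

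*Ctsl* (NCBI Gene 13039, chromosome 13 from 64361890 to 64370772, minus strand), an endopeptidase gene of broad expression, was low in these cells, at 3.80 and 3.88 FPKM in AAV-ctrl and 3.47 in AAV-IL27. These are about 138, 143 and 125 fragments, and their Poisson intervals overlap in all 3 libraries (from 116 to 163, from 121 to 168 and from 104 to 149). An antisense gene, Gm47123, overlaps 1742 of its exonic bases.

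Among the cysteine exopeptidases, *Ctsc* (NCBI Gene 13032, chromosome 7 from 88278024 to 88315861, plus strand), the activator of granule serine proteases, was at 10.11 and 9.43 FPKM in AAV-ctrl and 4.17 in AAV-IL27. Here too the AAV-ctrl values were close together and the AAV-IL27 value was less than each by a wide gap. The AAV-ctrl mean was 9.77 ± 0.481 (SD, n = 2), and the log2 differences were -1.10 and -1.01. The second only just passes the limit of 1, and with FPKM totals made equal it was -0.99 and the gene was not called. Granule protease genes were found on both sides of AAV-ctrl. *Prss57* was at 4.45, 4.35 and 3.37 FPKM, below both AAV-ctrl libraries as *Ctsc* was, and 3 others were above both. *Elane*, neutrophil elastase, was at 17.95, 20.90 and 26.11 FPKM, *Prtn3* at 11.15, 13.30 and 16.08, and *Ctsg*, the granule serine protease cathepsin G, at 4.58, 6.61 and 6.94. The list of these genes also holds *Mpo*, its most abundant gene (26.61, 32.13 and 35.44 FPKM), which encodes a granule peroxidase and not a protease. None of its 5 genes at 1 FPKM or more was called, and their median was 0.29, against 0.24 between the AAV-ctrl libraries, and 0.14 without AAV-ctrl 1 or 0.49 without AAV-ctrl 2.

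*Ctsh* (NCBI Gene 13036, chromosome 9 from 90054267 to 90076095, plus strand), chiefly an aminopeptidase gene, was at 93.13 and 97.89 FPKM in AAV-ctrl and 95.46 in AAV-IL27. *Ctsz* (NCBI Gene 64138, chromosome 2 from 174427494 to 174439039, minus strand), a carboxypeptidase gene, was at 58.10, 59.69 and 57.00 FPKM. *Ctsh* lay between the AAV-ctrl values and *Ctsz* at 96.8% of their mean. For *Ctsz*, 1521, 1588 and 1485 estimated fragments had intervals of 1446 to 1599, 1511 to 1668 and 1410 to 1563, which overlap.

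Summed over the 10 genes, cathepsins amounted to 1268 and 1332 FPKM in AAV-ctrl and 1104 in AAV-IL27, 84.9% of the AAV-ctrl mean. The 7 cysteine members together were at 359, 373 and 290.1 FPKM (79.2%). Both sums were below either AAV-ctrl library. *Ctsb* took 10.2% of the cathepsin sum in each AAV-ctrl library and 6.47% in AAV-IL27.

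Outside a list of other peptidases and small hydrolases, the rest of the lysosome was mostly near the AAV-ctrl level. Over 5 lists of other peptidases and small hydrolases, glycosidases, lipid and sulfate enzymes, membrane proteins and proton pump subunits, 2 of 73 genes were lower by at least 1 unit, 2.74% against the 2.32% of all genes, and 0 were higher. The median of the 73 genes was -0.01. The genes called lower were *Acp5*, tartrate-resistant acid phosphatase, at 17.13, 13.77 and 3.12 FPKM, and *Cpq*, a carboxypeptidase gene, at 2.72, 3.72 and 0.64 FPKM. The peptidase and small hydrolase list, to which *Cpq* belongs, had a median of -0.35 over 10 genes, further from 0 than that of the cathepsins (-0.12). At 0.5 units 4 of its 10 genes were lower, against 3 cathepsins and 7.01% of all genes. In this list 8 genes were below both AAV-ctrl libraries, as were 8 cathepsins, against 41.9% of all genes. *Ppt1*, the most abundant of the list, was at 69.54, 55.97 and 53.24 FPKM. *Lgmn*, legumain, which processes several cathepsin precursors, was looked up after the values were seen. It was at 28.52, 28.38 and 14.40 FPKM, a log2 difference of -0.94 that comes near that of *Ctsb* (-0.88).

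The remaining lysosome lists had medians near 0. They were 0.03 for 16 glycosidases (*Man2b1* at 172.74, 168.35 and 184.27 FPKM), -0.03 for 16 lipid and sulfate enzymes (*Psap* at 702.76, 739.43 and 723.38), 0.09 for 15 membrane proteins (*Cd63* at 176.62, 172.79 and 180.82) and 0.01 for 16 proton pump subunits (*Atp6v0c* at 398.25, 417.41 and 428.12). Of 8 genes for mannose 6-phosphate sorting, which carries new cathepsins to the lysosome, 0 were called and the median was -0.08 (*Grn* at 178.96, 191.91 and 189.19 FPKM). Of 6 transcription factors that bind the E-box, 0 were called and the median was 0.08, with *Usf2* highest at 55.89, 55.91 and 65.16 FPKM and *Tfeb* at 53.91, 51.74 and 60.30. With either AAV-ctrl library left out, these 6 medians lay between -0.12 and 0.16. Among 13 other cathepsins the table listed 5, of which *Ctsg* and *Ctso* reached a mean of 1 FPKM and were not called, with a median of 0.10 that was -0.030 without AAV-ctrl 1. *Ctsf*, under that mean, was at 0.87, 1.03 and 0.27 FPKM.

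**Figure D3:**
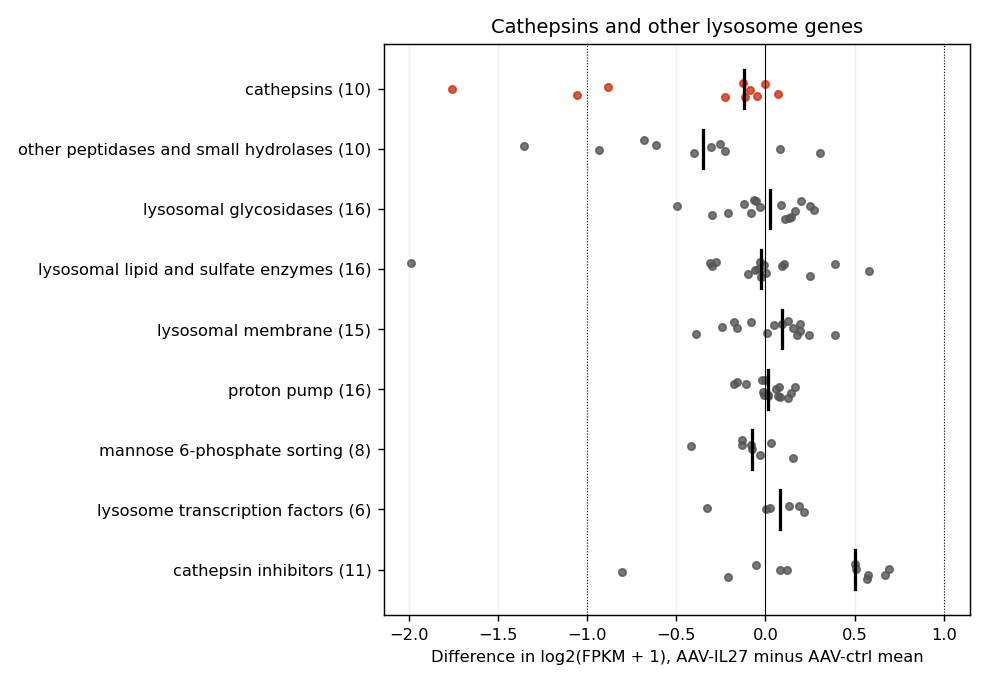
Difference in log2(FPKM + 1), AAV-IL27 minus the AAV-ctrl mean, for the cathepsins (red) and 8 lists of lysosome genes (grey), 1 point per gene with a mean of at least 1 FPKM, with medians as bars, the number of genes in brackets and dotted lines at 1 unit. The cathepsin median is -0.12 and the glycosidase, membrane and proton pump medians lie between 0.01 and 0.09, while the median of the inhibitor list is 0.50.

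Most genes of the inhibitor list stood above AAV-ctrl. The list holds stefins, cystatins and serpins, and also *Timp2* (134.26, 133.95 and 141.69 FPKM), which encodes an inhibitor of metalloproteinases rather than of cathepsins. Over its 11 genes the median was 0.50, against -0.03 between the AAV-ctrl libraries, and 0.33 without AAV-ctrl 2. Of these genes 8, *Timp2* among them, were above both AAV-ctrl libraries, against 38.9% of all genes, and 0 were called at 1 unit. At 0.5 units from each AAV-ctrl library 2 were higher, against 1.57% of all genes, and 1 was lower, against 7.01%. *Stfa2l1*, a stefin and the most abundant, was at 544.49, 489.36 and 770.03 FPKM, while *Serpinb6a*, looked up after the values were seen, was at 34.59, 33.11 and 18.95 FPKM. The sum of the cystatins and stefins alone was 1111, 1053 and 1460 FPKM, 135% of the AAV-ctrl mean, beside 79.2% for the cysteine cathepsins. Both sums lean on their most abundant gene, *Stfa2l1* (149%) and *Ctsb* (53.9%). Of the other cysteine cathepsins, *Ctsl*, *Ctss*, *Ctsh* and *Ctsz* were at 90.4%, 94.1%, 99.9% and 96.8%, and *Ctsc* and *Ctsk* at 42.7% and 9.18%. The stefins of the *Stfa* group are near-identical copies, so their single values are uncertain.

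Macrophage transcripts were lower too. Like neutrophils, macrophages use cathepsins to digest engulfed material. Of 17 macrophage genes, 14 were lower by at least 1 unit, against 2.32% of all genes. All 17 were below both AAV-ctrl libraries, against 41.9% of all genes. Their median was -1.66, against -0.05 between the AAV-ctrl libraries. *Apoe*, the most abundant, was at 199.97, 231.47 and 138.56 FPKM. Furthest from AAV-ctrl on the log2(FPKM + 1) scale were *Cd163*, a scavenger receptor gene (18.69, 18.02 and 2.07 FPKM), *Vcam1* (18.4% of the AAV-ctrl mean), *Mrc1* (16.1%) and *Axl* (19.5%). Against the AAV-ctrl mean, macrophage genes were at 11.3% to 83.2% (median 26.8%), megakaryocyte genes at 10.2% to 66.02% (17.9%) and stromal genes at 28.8% to 82.8% (32.7%). Erythroid genes were at 7.01% to 22.9% (13.6%) and B cell genes at 1.16% to 17.4% (12.8%). *Ctsb* was at 53.9%, *Ctsc* at 42.7% and *Ctsk* at 9.18%. Several of these ranges are wide and they overlap, so a member lying inside one is not thereby assigned to that cell type. The part of macrophages in the cathepsin values was not tested.

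Of the osteoclast list, *Calcr*, *Ocstamp*, *Oscar* and *Dcstamp* were at 0 to 0.18 FPKM in every library. *Tnfrsf11a*, the gene of the RANK receptor, was at 0.37, 0.41 and 0.07 FPKM, and *Acp5*, given above with the lysosomal enzymes, is an osteoclast marker as well. *Car2*, which red cells also make, was called lower (83.28, 78.70 and 7.66 FPKM). *Nfatc1* was above both AAV-ctrl libraries (54.33, 52.59 and 61.71 FPKM) and *Itgb3* below both (24.17, 27.13 and 22.93), and neither was called. The 3 osteoclast genes that reached a mean of 1 FPKM had a median of -0.15, and -0.23 without AAV-ctrl 1 or -0.073 without AAV-ctrl 2. Of 5 stromal genes, 1 was called lower (*Lpl*, the most abundant, at 13.44, 12.70 and 4.28 FPKM), and the median was -0.75, against 0.25 between the AAV-ctrl libraries, and -0.43 without AAV-ctrl 2. All 5 B cell genes at 1 FPKM or more were called lower (median -1.87, with *Cd79a* at 12.8% of the AAV-ctrl mean, *Cd79b* at 17.4% and *Ms4a1* at 1.16%). So were 4 of 6 megakaryocyte genes (-1.28, with *Ppbp* at 10.2%, *Pf4* at 11.9%, *Itga2b* at 24.0% and *Gp5* at 11.6%), against 2.32% of all genes. The part of these cells in the cathepsin values was not tested. Monocyte genes had a median of 0.29 over 8 genes with 0 called, but its sign was not stable, since it was 0.16 without AAV-ctrl 1 and -0.021 at a mean of at least 5 FPKM. Of these 8 genes, 5 were above both AAV-ctrl libraries, against 38.9% of all genes, and 1 was below both, against 41.9%. Among those above was *Ly6c2*, at 1023.13, 1086.23 and 1145.19 FPKM, and the 1 below was *Irf8*, at 7.49, 7.89 and 4.66. Neutrophil genes had -0.05 over 15 genes with 0 called, with *S100a9* the most abundant (73508, 71786 and 68765 FPKM), dendritic cell genes 0.50 over 2 (-0.062 over all 9 with no filter), with *Itgax* at 17.28, 11.89 and 24.64 FPKM, and genes used by every cell -0.15 over 12, with *Actb* at 6178.70, 6141.14 and 6355.81 FPKM.

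**Figure D4:**
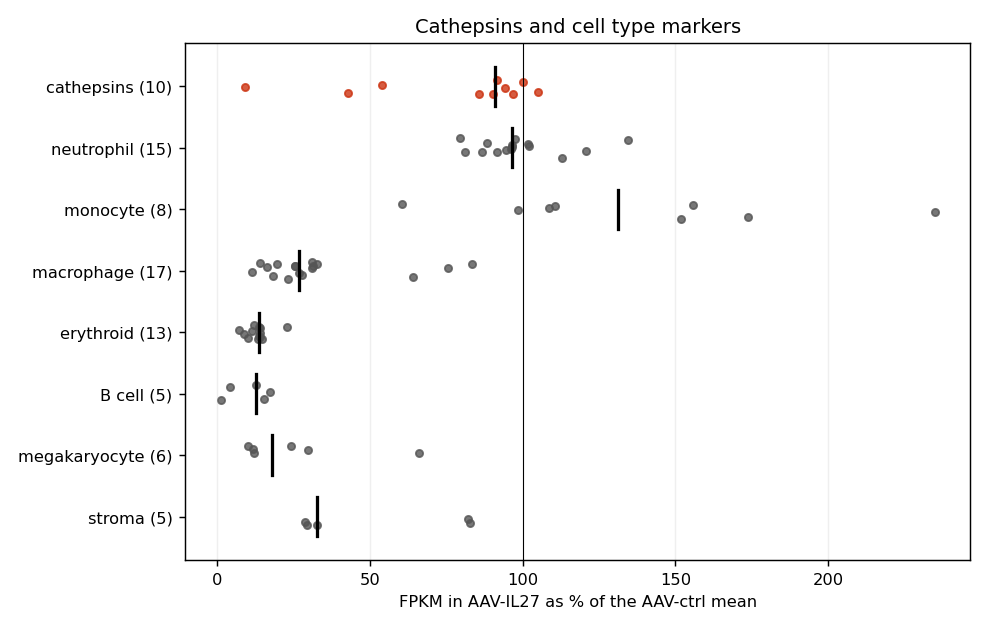
FPKM in AAV-IL27 as a percentage of the AAV-ctrl mean for the cathepsins (red) and markers of 7 cell types (grey), 1 point per gene with a mean of at least 1 FPKM, with medians as bars and the number of genes in brackets. Of the cathepsins, 7 lie near 100%, as most neutrophil genes do, while *Ctsb*, *Ctsc* and *Ctsk* lie lower.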

How the data were processed

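RNA-seq values of Ly6G+ BM cells were analysed for 2 AAV-ctrl libraries and 1 AAV-IL27 library. Groups follow the sample titles, which count fewer libraries than the 4 mice of the design text. RNA was extracted with Trizol, mRNA was enriched with oligo-dT, the second strand was marked with dUTP, and libraries were sequenced on DNBSEQ. The authors deposited FPKM values with 2 decimals and no counts. The submitters' processing notes name the build mm10. The aligner and counter are not given in the sources used here. Of 16073 rows, 16072 had a gene symbol, and 1 further column of per-sample values, which no listed sample matched, was left out.

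Genes with a mean of at least 1 FPKM over the 3 libraries (9130) were compared as log2(FPKM + 1). A gene was called at 1 log2 unit or more from each AAV-ctrl library. Alternatives were pseudocounts of 0.1 and 0.01, no filter or a mean of at least 5 FPKM, limits of 0.5 and 2 units, rescaling by median ratios or to equal totals, and leaving out each AAV-ctrl library. No count test was run. Depth was estimated from the steps of low values of genes with a single transcript in GENCODE M21 (10934 genes, 70 nt taken off each length), with 71.8% to 75.5% of 359 to 381 low values within 0.15 of a whole fragment, so fragments are estimates.

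All members are named with the value in each library. From 21 lists of other genes, counts, medians, the genes called (at most the 4 furthest from the nearer AAV-ctrl library) and the most abundant gene are given, and any other gene named was chosen after its values were seen. Some genes that this rule would name are not reported here. Members and lists were chosen with earlier results of these data known. Positions are from RefSeq on GRCm38.p6, which mm10 also names, and overlaps from GENCODE M21. Scripts ran in Python 3.11.15 with scipy 1.17.1 for intervals, pandas 2.3.3 and numpy 2.4.6 for tables and matplotlib 3.10.9 for plots, and were tested on simulated data.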

Additional observations from a re-analysis of the deposited data

How the results depend on the processing

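All results rest on 1 AAV-IL27 library, and FPKM without counts leaves the precision of high genes unknown beyond the estimated fragments. *Ctsc* and *Ctsk* were called lower, and 0 members higher, under both smaller pseudocounts, without a filter, with median ratios and without either AAV-ctrl library. The number called lower was 1 with a mean of at least 5 FPKM, which *Ctsk* does not reach, 1 with equal FPKM totals, where *Ctsc* missed the limit, and 0 at a limit of 2 units. The median difference of the members was -0.13 with a pseudocount of 0.1, -0.14 with 0.01, -0.10 with a mean of at least 5 FPKM and -0.083 with equal totals, and it ranged from -0.14 to -0.13 without AAV-ctrl 1 or 2. Pseudocounts of 0.1 and 0.01 gave -3.03 and -3.32 for *Ctsk* (-1.76 with 1), since they weigh less on low values. *Ctse* (-0.02 without AAV-ctrl 2) and *Ctsh* (0.04 with equal totals and without AAV-ctrl 2) changed sign, both near 0. Of 168 alternative medians of the 21 lists, 38 moved by more than the AAV-ctrl spread and 7 changed sign. The sign changed for dendritic cell genes (-0.062) with no filter, for monocyte genes (-0.021) with a mean of at least 5 FPKM, for glycosidases (-0.031) with no filter, for lipid and sulfate enzymes with equal totals (0.010) and without AAV-ctrl 1 (0.0043), and for other cathepsins with no filter (-0.028) and without AAV-ctrl 1 (-0.030). Over all genes, the 212 lower and 28 higher became 396 and 42 with a pseudocount of 0.1, 425 and 46 with 0.01, 93 and 22 with a mean of at least 5 FPKM, 640 and 143 at 0.5 units, 39 and 5 at 2 units, and 235 and 50 without AAV-ctrl 2. No paired analysis was run, since the sample titles number the libraries but name no pairs.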
